A study of Mus musculus with 12 samples.

Results

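The 6 libraries compared here held M2-like bone marrow-derived macrophages (BMDM) that had received IFNβ from 2 sources at the same nominal level, 1500 pg/mL, for 72 hours. In 3 libraries the IFNβ came in supernatant of YUMM5.2 Ifnb1eGFP melanoma cells, and in 3 it was recombinant (rIFNβ). They were chosen by their sample descriptions, 6 of 12 libraries in the series, and were compared over the 15033 genes that passed a filter on low counts, of 56748 listed. All BMDM came from C57BL/6J mice, were grown with M-CSF at 20 ng/mL and received IL4 at 10 ng/mL for 48 hours before treatment. The donor line YUMM5.2 derives from a mouse melanoma, and in its Ifnb1eGFP version a lentiviral construct expresses Ifnb1 with eGFP when doxycycline (Dox) is present. Dox at 1 μg/mL was given to these donors during 72 hours. The 6 remaining libraries had no IFNβ added: 3 received, at the same dilution, supernatant of donors that expressed eGFP alone under Dox, and 3 were untreated controls. The supernatant thus brought other products of tumor cells and leftover Dox along with IFNβ, whereas rIFNβ came in medium, and these parts of the supernatant cannot be told apart. Bone marrow of separate mice is not recorded per library, so p-values measure the spread between these libraries.

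Type I interferons such as IFNβ bind a receptor made of IFNAR1 and IFNAR2, which signals through the kinases JAK1 and TYK2. Transcription factors activated by these kinases then bind interferon-stimulated response elements in the promoters of interferon-stimulated genes. In macrophages these genes encode antiviral proteins, antigen presentation components and chemokines. A tumor supernatant can also hold growth factors, lipids and proteins that act through other receptors, so the comparison asks what the tumor cell supernatant adds to, or takes from, the response to IFNβ alone.

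Library totals of the 6 libraries ran from 33640835 to 45348457 counts. As the root mean square difference in log2 CPM over genes, libraries of different IFNβ sources lay 0.403 to 0.579 apart. Pairs of different sources lay 0.403 to 0.523 apart where they shared a replicate number and 0.463 to 0.579 where they did not. Libraries of the same source, which never share a number, lay 0.430 to 0.606 apart. This range was 0.430 to 0.442 for rIFNβ and 0.458 to 0.606 for Ifnb1eGFP supernatant. Any IFNβ-exposed library lay 0.963 to 1.16 from any library without IFNβ. CPM are counts of a gene scaled to the normalized library total. Some libraries stood apart from their group. Ifnb1eGFP supernatant replicate 1 had less, and replicate 2 more, of the genes with GC-rich transcripts. In the tenth of genes with the highest GC content (at least 56.9%), the median difference from the mean of the 6 libraries was −0.39 log2 units in replicate 1, 0.22 in replicate 2 and −0.13 in replicate 3. In the rIFNβ libraries it was 0.08, 0.18 and 0.05. Across 14969 genes these differences correlated with GC content at r = −0.45, 0.27 and −0.17 for the supernatant and 0.12, 0.24 and 0.10 for rIFNβ, values that share each library's depth and scaling. The counts of called genes are given below without Ifnb1eGFP supernatant replicate 1 or 2, and with the trend on GC content and transcript length removed from each library. For single genes such values are given in part only, so a value printed without them may also depend on that trend. Among the libraries without IFNβ, eGFP supernatant replicate 2 had the highest level of all 47 interferon-stimulated genes listed here, 1.44 to 10.9 times the mean of the other eGFP supernatant libraries. It stayed below every IFNβ-exposed library for all 47.

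**Figure D1:**
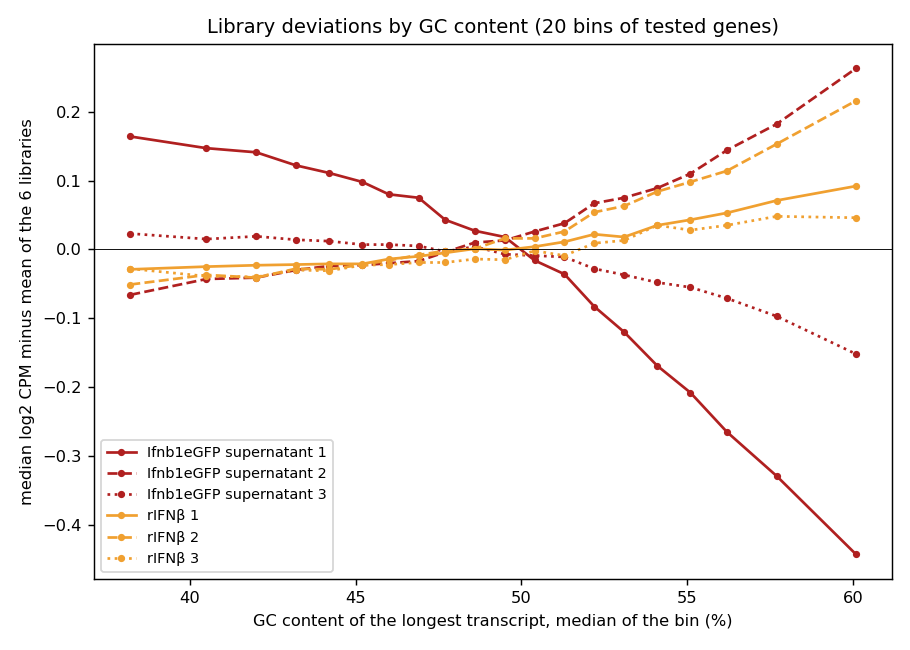
Median difference of each library from the mean of the 6 libraries (y axis, log2 CPM) in 20 bins of genes ordered by the GC content of their longest transcript (x axis, %). Red lines are the 3 Ifnb1eGFP supernatant libraries and orange lines the 3 rIFNβ libraries, and Ifnb1eGFP supernatant replicates 1 and 2 run in opposite directions, to −0.443 and 0.263 in the bin richest in GC.

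The response of interferon-stimulated genes was strong with both sources, and none of the 47 genes listed here was called different between them. Outside this list, 12 of the 24 genes called between the sources also rose with both, as described below. In bulk samples fewer cells of a type and less RNA per cell cannot be told apart. All 47 listed genes were tested, and all 47 rose with each source against its own control. A gene is called, or said to rise or fall, where its adjusted p does not exceed 0.05. Over all genes tested, 30.1% rose and 25% fell between Ifnb1eGFP and eGFP supernatant, and 30.7% rose and 24.6% fell between rIFNβ and untreated control. The median rise of the 47 genes was 4.20 log2 units with rIFNβ. With Ifnb1eGFP supernatant it was 3.53, and 4.14 without eGFP supernatant replicate 2. Compared directly, 32 of the 47 were lower and 15 higher with Ifnb1eGFP supernatant than with rIFNβ, and log2 fold changes ran from −0.44 to 0.11. Their median was −0.04, beside −0.003 over all genes tested, and 0.00 without Ifnb1eGFP supernatant replicate 2. In edgeR's quasi-likelihood test 0 were called, and 0 had an unadjusted p below 0.05. In 6 of the 47 genes the groups were apart, all lower with the supernatant, where 12.8% of all genes tested had groups that did not overlap.

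Isg15, which encodes a ubiquitin-like antiviral protein, was at 402, 378 and 376 CPM with Ifnb1eGFP supernatant and at 459, 418 and 442 CPM with rIFNβ. Irf7, a transcription factor that amplifies the interferon response, was at 1330, 1690 and 1450 CPM against 1900, 1780 and 1740 CPM. These genes are named after their values were seen, and in both every supernatant library was below every rIFNβ library. Cxcl10, a chemokine that draws T cells, had the smallest p of the list. It was at 21.8, 15.3 and 14.3 CPM with Ifnb1eGFP supernatant and 29.0, 20.8 and 20.0 CPM with rIFNβ, groups that overlapped, with a log2 fold change of −0.44 (95% interval −1.18 to 0.30, adjusted p = 0.663). Bst2, which tethers budding virus to the cell surface, had a log2 fold change of −0.17, and the antiviral gene Oasl1 of −0.26 (adjusted p = 0.706 for each). Removing the GC and length trend gave −0.05 for Bst2, −0.11 for Oasl1 and −0.47 for Cxcl10. The intervals of the 47 genes had a median half-width of 0.593 log2 units and lay within 1 log2 unit of no change for 32 genes. The fit shares its estimate of the spread over all 12 libraries, and without eGFP supernatant replicate 2 the half-width was 0.258 and the intervals of all 47 genes lay within 1 log2 unit. In that fit 2 genes had an unadjusted p below 0.05, both lower with the supernatant, and the smallest adjusted p was 0.541. In a fit restricted to the compared conditions there were 4, all lower.

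**Figure D2:**
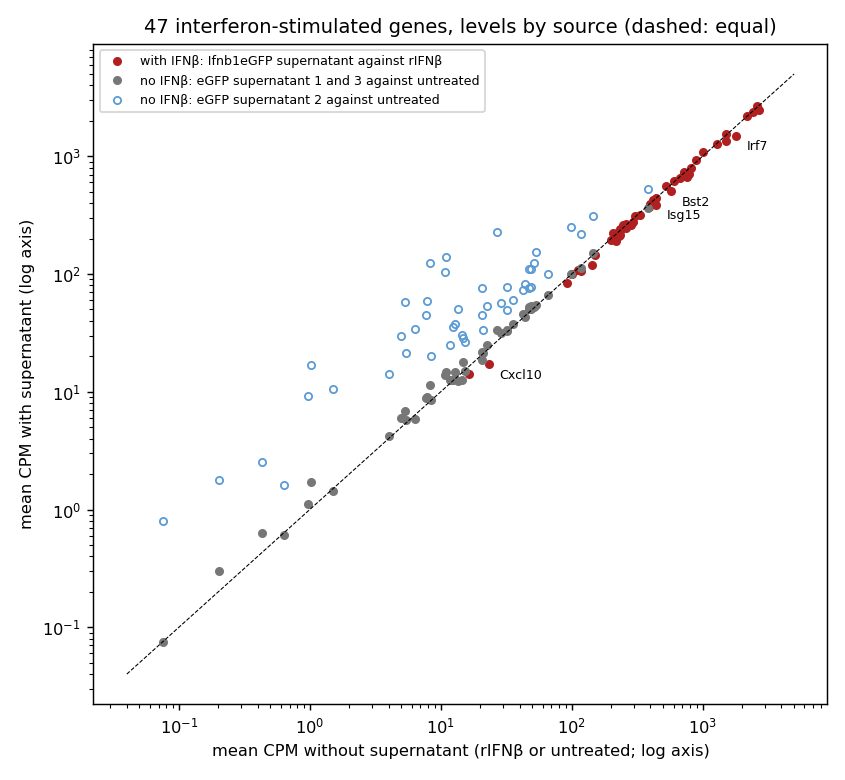
Mean CPM of the 47 interferon-stimulated genes with supernatant (y axis) against the matching condition without supernatant (x axis), both on log axes. Red points compare the IFNβ sources and lie along the dashed line of equal levels, grey points compare eGFP supernatant replicates 1 and 3 with untreated control, and open blue points show eGFP supernatant replicate 2 alone, above the line for all 47 genes.

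Upstream of the response, Ifnb1 mRNA of the cells amounted to 1 count in the 6 libraries, in Ifnb1eGFP supernatant replicate 2. Of 12 genes of the type I interferon receptor and its signaling tested, 0 were called and 2 had an unadjusted p below 0.05, 1 in each direction. Ifnar1 was at 94.1, 94.5 and 91.3 CPM with Ifnb1eGFP supernatant and 87.2, 86.5 and 81.9 CPM with rIFNβ. The groups did not overlap, and the log2 fold change was 0.13 (95% interval 0.05 to 0.22, adjusted p = 0.420). Ifnar2 had a log2 fold change of 0.00 (−0.15 to 0.14). Ptpn6, which encodes a phosphatase that dampens receptor signaling, had one of −0.14 (adjusted p = 0.415), and 0.00 with the GC and length trend removed. Tyk2 had one of −0.20 (adjusted p = 0.593), and −0.33 without Ifnb1eGFP supernatant replicate 2 (adjusted p = 0.0336). Its transcript has a GC content of 56.9%, and with the GC and length trend removed the difference was −0.05 (adjusted p = 0.758).

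The activation genes that the study names for this experiment, with the M2-like marker gene Mrc1 added, were also close. Of 8 genes 0 were called, and log2 fold changes ran from −0.15 to 0.19. Mrc1, which encodes the mannose receptor CD206 of alternatively activated macrophages, was at 825, 811 and 839 CPM with Ifnb1eGFP supernatant and 662, 775 and 732 CPM with rIFNβ. It was higher in every supernatant library, with a log2 fold change of 0.19 (95% interval 0.01 to 0.37, adjusted p = 0.580). The study reports lower CD206 protein on M2-like BMDM after IFNβ. Mrc1 mRNA was not called with either source against its own control. Its log2 fold change was 0.12 with Ifnb1eGFP supernatant (adjusted p = 0.218) and 0.13 with rIFNβ (adjusted p = 0.193). The costimulatory gene Cd86 had a log2 fold change of −0.07 (−0.34 to 0.19), the high-affinity Fc receptor gene Fcgr1 of 0.05 (−0.31 to 0.42) and the MHC class I gene H2-Q6 of −0.12 (−0.37 to 0.12). Removing the GC and length trend gave −0.13 for Cd86, 0.10 for Fcgr1 and 0.00 for H2-Q6. Aif1, Cd69, Fcgr4 and Tnfsf10 had log2 fold changes of −0.02, 0.13, 0.00 and −0.15.

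Outside the list of interferon-stimulated genes, a small group of genes differed between the sources. Called were 24 of 15033 genes (0.16%), of which 21 had higher and 3 had lower levels with Ifnb1eGFP supernatant. Before adjustment 1288 genes had p below 0.05, 782 of them higher (5.2%) and 506 lower (3.37%). The 24 differences were moderate, with absolute log2 fold changes of 0.29 to 1.32, a median of 0.622 and 4 above 1. For all 24 the groups did not overlap. No gene, 0 of 15033, passed the study's own thresholds of 2 log2 units and 0.01 for the adjusted p. Libraries of the same replicate number deviated together, and with that number as a block 48 genes were called, 41 higher and 7 lower, which included 23 of the 24. Removing the trend on GC content and length gave 32 called genes, 27 higher and 5 lower, with 17 of the 24 among them, and doing so with the block gave 110, 83 higher and 27 lower, with 23 of the 24. Without Ifnb1eGFP supernatant replicate 2 the count was 1051, 194 higher and 857 lower, which included all 24. The median GC content was 56.3% for those lower genes, 44.5% for the higher ones and 48.7% for genes not called. With the GC and length trend removed as well the count was 150, 74 higher and 76 lower. Other settings ended most calls: 2 genes were called in a fit of the compared conditions alone, 4 without rIFNβ replicate 1, 8 without rIFNβ replicate 2, 11 without rIFNβ replicate 3 and 8 without Ifnb1eGFP supernatant replicate 3. Without Ifnb1eGFP supernatant replicate 1 the count was 23, 20 higher and 3 lower, with 19 of the 24 among them. The alternatives with GC content were chosen after the data were seen. Called under all of the edgeR model, its block version, DESeq2, and the GC and length correction with and without the block were 15 of the 24, and each of the 24 had the same sign in all of these.

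Among the 21 genes that were higher were several that encode proteins of the cell surface. Ms4a4a, a 4-pass membrane protein of alternatively activated macrophages, was at 61.8, 51.1 and 58.9 CPM with Ifnb1eGFP supernatant and 24.9, 23.2 and 24.5 CPM with rIFNβ. The lowest supernatant library was more than double the highest rIFNβ library. The fold change was 2.37 (log2 fold change 1.24, standard error 0.0791, adjusted p = 9.42e-05). Cxcr4, the receptor of the chemokine CXCL12, was at 57.4, 57.8 and 60.3 CPM against 31.6, 33.5 and 32.9 CPM, with groups far apart and a fold change of 1.79 (log2 fold change 0.84, standard error 0.0593, adjusted p = 0.000143). Fcgr2b, the inhibitory Fc receptor of immunoglobulin G, was at 35.0, 32.2 and 32.3 CPM against 15.4, 19.1 and 17.1 CPM, a fold change of 1.92 (log2 fold change 0.94, adjusted p = 0.000746). These genes lie at chr19:11352823-11370154, chr1:128515936-128520044 and chr1:170786186-170804177 (GRCm39). Unlike Ms4a4a and Cxcr4, Fcgr2b fell with IFNβ: it was at 25.0 to 27.2 CPM in untreated control and 44.6 to 51.0 CPM with eGFP supernatant, each above its IFNβ-exposed counterpart.

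Ccr1, a receptor of inflammatory chemokines such as CCL3 and CCL5, was at 411, 376 and 396 CPM with Ifnb1eGFP supernatant and 292, 295 and 298 CPM with rIFNβ (log2 fold change 0.42, adjusted p = 0.00476). Itgam, which encodes the integrin CD11b, was at 397, 405 and 426 CPM against 317, 321 and 330 CPM (log2 fold change 0.34, adjusted p = 0.00777). Cd93, a receptor of phagocytes and endothelial cells, was at 370, 365 and 358 CPM against 289, 295 and 283 CPM (log2 fold change 0.33, adjusted p = 0.0273). In each of the 3 genes the lowest supernatant library was above the highest rIFNβ library. Cd93 was no longer called with the GC and length trend removed (adjusted p = 0.110), and was called again when the block was added (adjusted p = 0.0182).

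Genes for survival, proteolysis, uptake and lipid transport were among the others. Bcl2a1b, a relative of BCL2 that protects cells from apoptosis, was at 77.1, 71.7 and 68.2 CPM with Ifnb1eGFP supernatant and 48.9, 46.0 and 45.8 CPM with rIFNβ (log2 fold change 0.63, standard error 0.0553, adjusted p = 0.000746). Its near-identical copy Bcl2a1d differed by 0.17 log2 units (adjusted p = 0.613), and reads of these copies may have been divided between them. Ctsl, which encodes the lysosomal protease cathepsin L and is abundant in macrophages, was at 8700, 7570 and 8630 CPM against 5700, 5340 and 6090 CPM. The groups were apart and the log2 fold change was 0.54 (adjusted p = 0.00476). Picalm and Bmp2k, both of clathrin-mediated endocytosis, had log2 fold changes of 0.39 (adjusted p = 0.0105) and 0.31 (adjusted p = 0.0287). They were not called with the GC and length trend removed (adjusted p = 0.0533 and 0.0735), and were called when the block was added (adjusted p = 0.00262 and 0.0230). Apoc2, which encodes an apolipoprotein that activates lipoprotein lipase, was at 8.12, 8.27 and 7.99 CPM against 5.19, 4.61 and 4.95 CPM (log2 fold change 0.73, adjusted p = 0.00920).

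Genes of coagulation, matrix and cell contact followed. Thbs1, which encodes the matrix glycoprotein thrombospondin 1, was at 610, 619 and 705 CPM with Ifnb1eGFP supernatant and 310, 276 and 347 CPM with rIFNβ, a fold change of 2.07 (log2 fold change 1.05, standard error 0.136, adjusted p = 0.0105). F3, which encodes tissue factor, the starter of coagulation, was low in all libraries. It was at 1.52, 1.34 and 1.19 CPM against 0.682, 0.720 and 0.632 CPM, a fold change of 1.98 that rests on 249 counts in all 6 libraries (log2 fold change 0.99, adjusted p = 0.0248). DESeq2 gave F3 no adjusted p, so it was not called there. The Notch ligand gene Jag1 was at 10.4, 12.4 and 10.9 CPM against 6.38, 7.53 and 7.55 CPM (log2 fold change 0.65, adjusted p = 0.0287, and adjusted p = 0.0521 with the replicate block). Crem and Mxi1, which encode transcription factors of cAMP signaling and of the MAX network, had log2 fold changes of 0.44 (adjusted p = 0.0162) and 0.29 (adjusted p = 0.0338). Ggta1, the enzyme of the alpha-gal epitope, had one of 0.35 (adjusted p = 0.0136), and Rnf150, a gene for a RING finger protein, one of 0.33 (adjusted p = 0.00920). Without the GC and length trend the adjusted p was 0.110 for Crem, 0.0782 for Mxi1, 0.0927 for Rnf150 and 0.0166 for Ggta1. With the block added to that correction Mxi1 and Rnf150 were called (adjusted p = 0.0214 and 0.0137) and Crem was not (adjusted p = 0.0691).

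Of the 3 genes that were lower with Ifnb1eGFP supernatant, Igsf9 and Dmpk are described here, and both rose strongly with either source. Igsf9, an immunoglobulin superfamily adhesion gene, was at 31.8, 39.3 and 37.3 CPM with Ifnb1eGFP supernatant and, with rIFNβ, at 62.4, 55.7 and 57.6 CPM (log2 fold change −0.70, adjusted p = 0.0273). Dmpk, a serine/threonine kinase gene known from muscle, was at 15.3, 27.3 and 19.7 CPM against 43.4, 45.4 and 41.2 CPM (log2 fold change −1.06, adjusted p = 0.0331). For both genes the supernatant libraries lay below the rIFNβ libraries, and Ifnb1eGFP supernatant replicate 2 was the nearest to them. The transcripts of Igsf9 and Dmpk have a GC content of 59.1% and 55.3%, and with the GC and length trend removed their log2 fold changes were −0.48 (adjusted p = 0.120) and −0.96 (adjusted p = 0.00251). Igsf9 was called with that correction and the block (adjusted p = 0.0334).

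**Figure D3:**
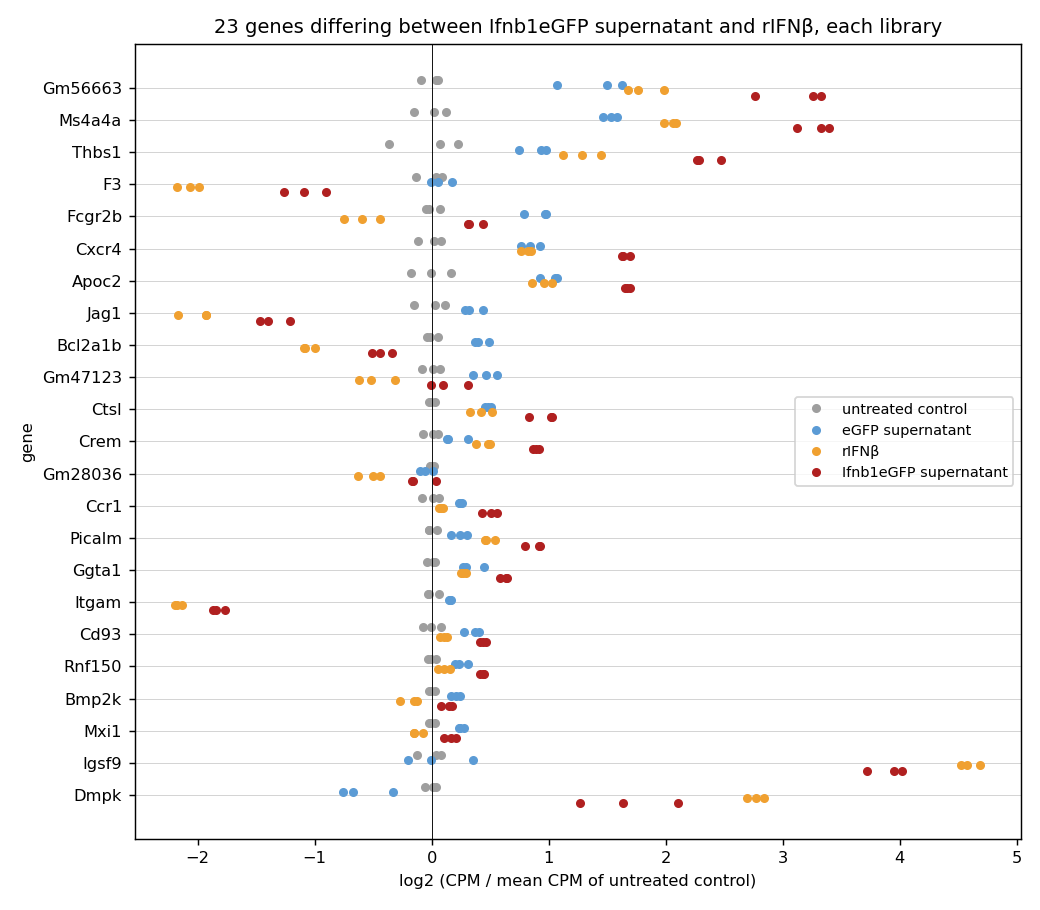
Level of 23 of the 24 called genes in each of the 12 libraries (points), as log2 of CPM over the mean of the untreated controls (x axis), ordered by the difference between the sources (y axis). Red points (Ifnb1eGFP supernatant) lie to the right of orange points (rIFNβ) for 21 genes and to the left for Igsf9 and Dmpk, with no overlap.

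The 24 called genes are not 24 separate loci. Gm56663, a long noncoding RNA with the largest of these log2 fold changes (1.32, adjusted p = 0.00920), starts 48 bases after the end of Ms4a4a on the same strand of chromosome 19 (GRCm39). It was at 16.2, 15.5 and 11 CPM with Ifnb1eGFP supernatant and 5.49, 5.19 and 6.42 CPM with rIFNβ. Gm47123 lies on the opposite strand within exons of Ctsl, which cover 100% of its 1742 exon bases, and differed by 0.62 log2 units (adjusted p = 0.0462) at 13.8 to 17.2 CPM against 9.06 to 11.2 CPM. The libraries came from a stranded kit, but whether the counting used strand is not given in the sources used here, so these reads and those of Ctsl cannot be told apart. Gm28036, which differed by 0.43 log2 units (adjusted p = 0.0287), shares 64.5% of its exon bases with Cpne1 and 37.5% with Rbm12, which had log2 fold changes of −0.27 and 0.01, neither called. Bcl2a1b shares 48.5% of its exon bases with Gm29094 (log2 fold change 0.37, not called), and Itgam 67.4% with Gm49368 (−0.35, not called). Apoc2 shares 41.6% on the same strand with Apoc2l, which was not tested. How the deposited counts divide reads within these pairs is uncertain.

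In the libraries without IFNβ, 11 of the 24 genes were also called between eGFP supernatant and untreated control, all of them higher with supernatant. The levels compared there come from the other 6 libraries, but the 2 comparisons are not independent, since all 12 libraries shared the estimate of the spread that decided which genes were called. Of the 24, 22 had a log2 fold change of the same sign there, called or not, where 57% of all genes tested did. The 11 called genes were among the 21 that were higher with Ifnb1eGFP supernatant (0.246% of all genes were called higher), and of the 3 lower genes 0 were called (0.0532%). Ms4a4a was at 16.9, 17.6 and 16.2 CPM with eGFP supernatant and 5.28, 5.94 and 6.36 CPM in untreated control, a difference of 1.52 log2 units (standard error 0.0881, adjusted p = 3.45e-05). Cxcr4 was at 33.3, 31.5 and 35.3 CPM against 18.9, 17.1 and 19.7 CPM, a log2 fold change of 0.84 in both comparisons. Fcgr2b had 0.91 without and 0.94 with IFNβ, Apoc2 1.01 and 0.73, Gm56663 1.41 and 1.32, Thbs1 0.89 and 1.05, and Ctsl 0.48 and 0.54. Bcl2a1b, Ggta1, Cd93 and Rnf150 were the other genes called in both. Without eGFP supernatant replicate 2, 23 of the 24 had the same sign and 7 were called, and 6 were called without untreated control replicate 1 or 3.

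The difference between both settings was tested as an interaction, in which 0 genes were called and 661 had an unadjusted p below 0.05 (DESeq2 called 9). Among the 24 genes 9 had an unadjusted interaction p below 0.05, beside 661 of all 15033 genes. The interaction contains the difference between the sources that chose the 24 genes, so this count is no separate evidence. F3 was at 3.21, 2.95 and 2.84 CPM with eGFP supernatant and 3.02, 2.93 and 2.60 CPM in untreated control. These groups overlapped, and its interaction was 0.91 log2 units (adjusted p = 0.67). F3 fell with both IFNβ sources, with log2 fold changes of −1.15 for Ifnb1eGFP against eGFP supernatant and −2.06 for rIFNβ against untreated control. Igsf9 was at 2.10 to 3.09 CPM with eGFP supernatant and 2.22 to 2.55 CPM in untreated control, and its interaction was −0.76 (adjusted p = 0.823). Gm28036 had an interaction of 0.48 (adjusted p = 0.67). The smallest interaction p values of all genes were those of Adgre5, Plxnb3 and Il6ra, whose log2 fold changes between the sources were −0.15, −0.26 and 0.03. Against IFNβ itself the 24 genes were mixed: 12 rose with both sources, 6 fell with both and 6 did neither. These counts share libraries with the comparison that chose the genes. Of all genes tested, 30.1% rose and 25% fell between Ifnb1eGFP and eGFP supernatant. Between rIFNβ and untreated control 30.7% rose and 24.6% fell. The share of all genes that rose or fell with both sources is not given here.

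**Figure D4:**
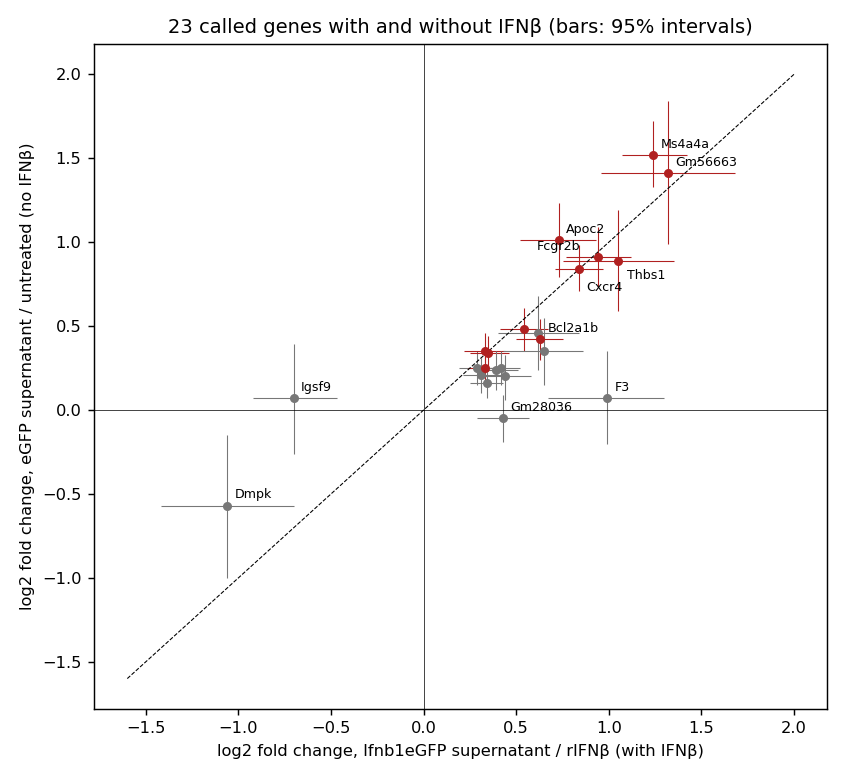
Log2 fold change of 23 of the 24 called genes with IFNβ (x axis, Ifnb1eGFP supernatant over rIFNβ) and without it (y axis, eGFP supernatant over untreated control), with 95% intervals. Red points mark the 11 genes also called without IFNβ, the dashed line marks equal changes, and F3, Gm28036 and Igsf9 lie near 0 on the y axis.

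Promoter sequences were read for the 250 bases before the RefSeq start site (GRCm38.p6), which were given for 16 of the 24 called genes and 34 of the 47 interferon-stimulated genes. The core of an interferon-stimulated response element, GAAA and again GAAA with any 2 bases between, was searched on both strands. It occurred in 16 of the 34 promoters of interferon-stimulated genes (47.1%), in 3.04% of 27025 promoters in all, and in 0 of the 16 of the called genes. The letters TGANTCA, bound by AP-1, occurred in 2 of the 16, those of Bcl2a1b and F3, and in 6.87% of all promoters. They also occurred in 9 of the 34 promoters of interferon-stimulated genes (26.5%), so they do not set the called genes apart from these. The E-box CACGTG occurred in 3 of the 16, those of Ctsl, Picalm and Igsf9, in 0 of the 34 and in 6.05% of all promoters. The cAMP response element TGACGTCA (1.62% of all promoters) and the NF-κB letters, GGGA and CCC with any 3 bases between (4.65%), occurred in 0 of the 16. Among the 34 they occurred in 0 and 3 (8.82%). A match is a run of letters and no evidence of binding. Below are the promoter of Isg15 as a type of the shared response, that of Ms4a4a as the gene with the smallest p, and those of Bcl2a1b and F3, 5′ to 3′, with capitals for the response element core in Isg15 and for TGANTCA in Bcl2a1b and F3. They stand at chr4:156200819-156201068 (− strand), chr19:11375238-11375487 (+ strand), chr9:89199023-89199272 (+ strand) and chr3:121723287-121723536 (+ strand).
Isg15: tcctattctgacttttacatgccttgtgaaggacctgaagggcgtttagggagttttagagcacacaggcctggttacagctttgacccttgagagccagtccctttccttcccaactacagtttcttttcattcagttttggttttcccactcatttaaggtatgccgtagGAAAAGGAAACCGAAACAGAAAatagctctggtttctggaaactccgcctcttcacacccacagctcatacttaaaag
Ms4a4a: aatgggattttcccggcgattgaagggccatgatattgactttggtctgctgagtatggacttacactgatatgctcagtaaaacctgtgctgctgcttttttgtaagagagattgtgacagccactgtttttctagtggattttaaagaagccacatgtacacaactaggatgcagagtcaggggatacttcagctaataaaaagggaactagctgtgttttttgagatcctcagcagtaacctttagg
Bcl2a1b: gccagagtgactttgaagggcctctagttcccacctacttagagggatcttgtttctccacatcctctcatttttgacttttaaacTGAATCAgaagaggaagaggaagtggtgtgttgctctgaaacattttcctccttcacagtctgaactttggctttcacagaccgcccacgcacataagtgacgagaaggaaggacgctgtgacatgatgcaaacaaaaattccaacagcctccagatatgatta
F3: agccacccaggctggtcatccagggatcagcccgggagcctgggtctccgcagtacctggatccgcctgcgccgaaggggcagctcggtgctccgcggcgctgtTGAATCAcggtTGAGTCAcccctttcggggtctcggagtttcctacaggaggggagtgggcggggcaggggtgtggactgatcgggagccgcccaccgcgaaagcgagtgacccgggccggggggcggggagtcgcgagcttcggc

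The gene families of the called receptors were described next, with all members tested. In the MS4A family 9 of 10 members were higher and 1 was called, with a median log2 fold change of 0.18. With the GC and length trend removed that median was 0.10 and 2 were called. The median difference of these members from the mean of the 6 libraries was 0.28, −0.03 and 0.06 with Ifnb1eGFP supernatant. With rIFNβ it was −0.02, −0.17 and −0.10, so the groups overlapped. Ms4a6d was at 565, 471 and 506 CPM with Ifnb1eGFP supernatant and 422, 408 and 415 CPM with rIFNβ, higher in every library. The log2 fold change of Ms4a6d was 0.31 (adjusted p = 0.100, and adjusted p = 0.0388 with the GC and length trend removed). Ms4a7 had one of 0.13 (adjusted p = 0.581). With eGFP supernatant against untreated control 4 of the 10 were called higher, Ms4a4a, Ms4a6b, Ms4a6c and Ms4a6d, where 0.246% of all genes were. Of 11 chemokine receptors 8 were higher, 2 of them called, with a median of 0.22, and the eotaxin receptor gene Ccr3 differed by 0.18 log2 units (adjusted p = 0.468). Of 6 Fc receptor genes 3 were higher, 1 called, with a median of 0.03. The activating receptor gene Fcgr3 was at 759, 691 and 710 CPM against 619, 637 and 615 CPM, a log2 fold change of 0.21 (adjusted p = 0.199, and adjusted p = 0.0326 without Ifnb1eGFP supernatant replicate 2). With the GC and length trend removed that of Fcgr3 was 0.34 (adjusted p = 0.268).

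Of 15 cathepsin and legumain genes, which include the inhibitors Cst3 and Cstb, 11 were higher, with a median of 0.07. Ctsl was called and 5 of the 15 had an unadjusted p below 0.05, all higher, where 5.2% of all genes did. Lgmn, which encodes an asparagine-specific lysosomal protease, was at 1950, 2080 and 1970 CPM with Ifnb1eGFP supernatant and 1760, 1770 and 1730 CPM with rIFNβ. For Lgmn the log2 fold change was 0.19 (adjusted p = 0.290), and 0.44 with eGFP supernatant against untreated control (adjusted p = 0.00552). Ctsh had one of 0.18 (adjusted p = 0.428). Under the block with the GC and length trend removed, Lgmn and Ctsh were called (adjusted p = 0.0128 and 0.0413). Of 26 lysosomal hydrolases and membrane proteins 18 were higher, with a median of 0.03, and 0 were called. The BCL2 family was balanced, with 7 of 12 higher, a median of 0.03 and Bcl2a1b called, and Mcl1 and the BH3-only gene Bcl2l11 had log2 fold changes of 0.16 (adjusted p = 0.548) and 0.18 (adjusted p = 0.302).

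In the coagulation and plasminogen list 7 of 11 genes were higher, with Thbs1 and F3 called. Plau, which encodes urokinase, an activator of plasminogen, was at 376, 379 and 363 CPM with Ifnb1eGFP supernatant and 443, 452 and 426 CPM with rIFNβ, lower in every supernatant library. The difference for Plau was −0.24 log2 units (adjusted p = 0.115, and adjusted p = 0.0273 with the replicate block). Of 11 genes of lipoproteins and the sterol receptor LXR 6 were higher, with a median of 0.10 and Apoc2 called. Mylip, which encodes a ligase that degrades the LDL receptor, and the cholesterol exporter gene Abca1 had log2 fold changes of 0.37 (adjusted p = 0.555) and 0.38 (adjusted p = 0.581). Of 19 sterol synthesis genes, which fell with both IFNβ sources, 15 were higher with Ifnb1eGFP supernatant by a median of 0.08, and 0 were called. Fdft1, the squalene synthase gene, differed by 0.26 log2 units (adjusted p = 0.462).

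Most antigen presentation genes had log2 fold changes below 0 with Ifnb1eGFP supernatant, with 0 called. The median difference of the class I genes from the mean of the 6 libraries was −0.25, 0.08 and −0.12 with Ifnb1eGFP supernatant. With rIFNβ it was 0.10, 0.14 and 0.03. For class II it was −0.20, −0.10 and 0.05 against 0.09, 0.01 and 0.20, so the groups overlapped in both lists. Of 10 MHC class II genes 8 were lower, with a median log2 fold change of −0.20, and 4 had an unadjusted p below 0.05, all lower, where 3.37% of all genes did. Cd74, the invariant chain gene, was at 103, 109 and 128 CPM with Ifnb1eGFP supernatant and 155, 132 and 154 CPM with rIFNβ. The groups did not overlap, and the log2 fold change was −0.37 (95% interval −0.60 to −0.14, adjusted p = 0.385). H2-Ab1 was at 12.5, 14.3 and 15.7 CPM against 18.8, 16.6 and 17.9 CPM (log2 fold change −0.32, adjusted p = 0.459). The transcripts of Cd74 and H2-Ab1 have a GC content of 55.6% and 55.7%. With the GC and length trend removed their log2 fold changes were −0.24 (adjusted p = 0.598) and −0.20 (adjusted p = 0.626). The count of unadjusted p values above comes from the fit without that correction. The median of the class II list was −0.17 without Ifnb1eGFP supernatant replicate 2, where 1 gene was called higher, and −0.14 with the GC and length trend removed. Of 18 MHC class I genes 16 were lower, with a median of −0.16. That of the class I list was −0.28 without replicate 2, with 3 genes called lower, and −0.09 with the trend removed. Over all genes, the fit without replicate 2 called 857 lower and 194 higher, and 14215 genes of known GC content were not called. Psmb10, a subunit of the immunoproteasome, was at 71.2, 124 and 84.2 CPM against 132, 134 and 119 CPM, with overlap through replicate 2. Its log2 fold change was −0.46 (adjusted p = 0.560), and −0.72 without replicate 2 (adjusted p = 0.0300). The transcript of Psmb10 has a GC content of 56.6%, and with the GC and length trend removed the difference was −0.34 (adjusted p = 0.395).

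In the lists of other macrophage programs 0 genes were called. Of 13 genes of IL4-driven alternative activation 9 were higher, with a median of 0.15 and 0 called. The lectin gene Clec10a differed by −0.30 log2 units (adjusted p = 0.581). Arg1, which encodes arginase 1, was at 0.278, 0.372 and 0.717 CPM with Ifnb1eGFP supernatant and 0.208, 0.247 and 0.328 CPM with rIFNβ, groups that overlapped, with a difference of 0.80 log2 units (95% interval −0.04 to 1.65, adjusted p = 0.592). The chemokine gene Ccl22, named after its values were seen, differed by 1.54 log2 units with a wide interval (−0.35 to 3.43). Of 19 NF-κB and inflammatory genes 13 were lower, with a median of −0.14 and 0 called. The chemokine gene Ccl5 was at 2.15, 3.58 and 1.87 CPM with Ifnb1eGFP supernatant and 6.17, 4.81 and 3.92 CPM with rIFNβ (log2 fold change −0.97, adjusted p = 0.506, and −1.30 with an adjusted p = 0.0442 without replicate 2). Glycolysis and hypoxia genes had a median of 0.02, NRF2 genes of 0.04, mitochondrial stress genes of −0.06, ATF4 stress genes of −0.13 and genes of DNA replication and mitosis of −0.11, the last with 16 of 18 lower. In none of these lists was a gene called. The median difference of the replication and mitosis genes from the mean of the 6 libraries was −0.13, 0 and 0.02 with Ifnb1eGFP supernatant. With rIFNβ it was −0.08, 0.07 and 0.16, so the groups overlapped. The mitochondrially encoded genes of the respiratory chain had a median of 0.19, and of 0.32 without replicate 2 and 0.09 with the GC and length trend removed. Without replicate 2, 4 of the 13 were called higher, where 194 genes were in all. Mt-Cytb, written mt-Cytb in the annotation, was at 546, 450 and 645 CPM against 392, 394 and 477 CPM, groups that overlapped (log2 fold change 0.38, adjusted p = 0.525).

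**Figure D5:**
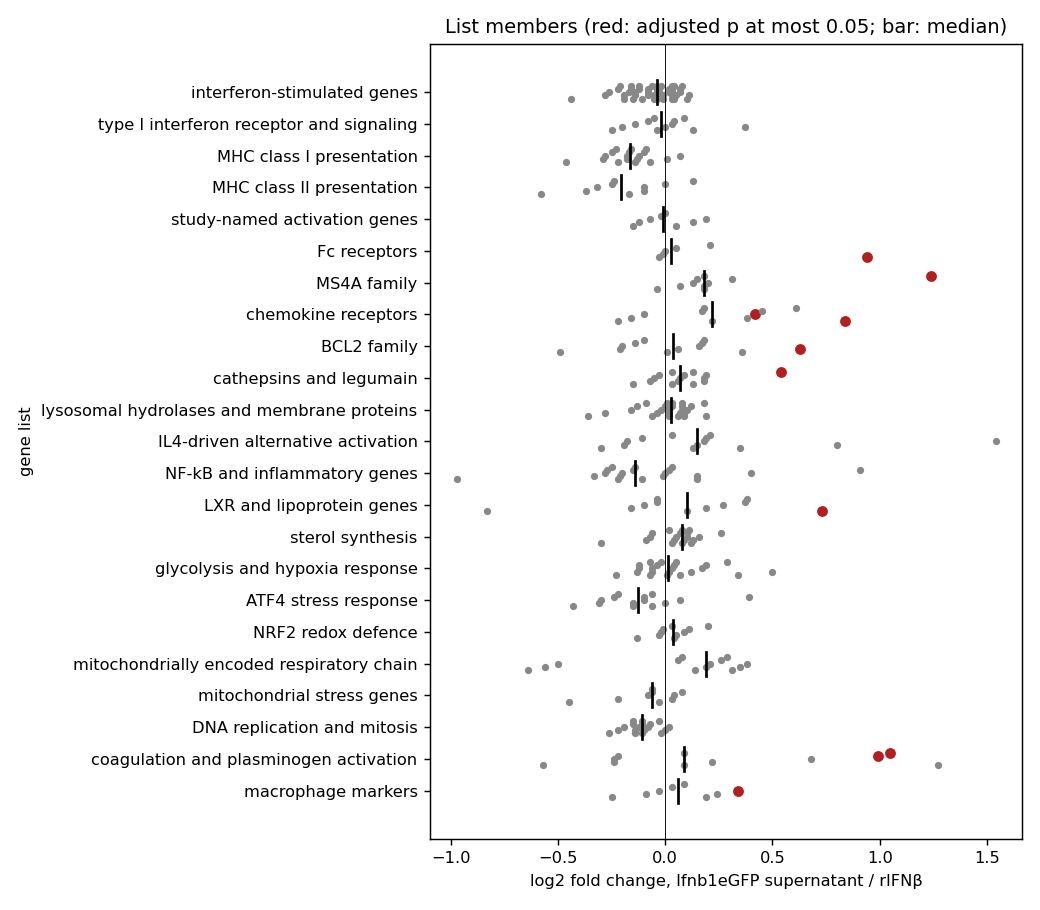
Log2 fold change between Ifnb1eGFP supernatant and rIFNβ (x axis) for the tested members of 23 gene lists (y axis), with 1 point per gene and a bar at the median. Red points are the called genes, and the interferon-stimulated genes lie between −0.44 and 0.11.

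Some differences with non-overlapping groups were large but not called. Ctla2a, which encodes a cysteine protease inhibitor, was at 4.48, 4.25 and 5.78 CPM with Ifnb1eGFP supernatant and 1.34, 1.66 and 2.63 CPM with rIFNβ. Its log2 fold change was 1.36 (95% interval 0.73 to 1.99, adjusted p = 0.148), and it was called with the replicate block (adjusted p = 0.00201). With eGFP supernatant against untreated control its log2 fold change was 2.21 (adjusted p = 0.00754). Gm2026 differed by 1.25 log2 units (adjusted p = 0.583). Largest in the other direction were Gm43302 (−2.81, adjusted p = 0.415), Lrrc14b (−1.83, adjusted p = 0.574) and Gm50139 (−1.6, adjusted p = 0.332), the first 2 of which had 0 counts in 1 Ifnb1eGFP supernatant library. Over all genes the data bounded the difference between the sources for most: the 95% interval lay within 1 log2 unit of no change for 12595 genes (83.8%), with a median half-width of 0.239.

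Cell identity was checked by marker genes. The 8 macrophage markers summed to 9570 to 9760 CPM with Ifnb1eGFP supernatant and 8950 to 9160 CPM with rIFNβ, and all 8 were tested, 5 higher and 1 called (Itgam). Lyz2, which encodes lysozyme and is the most abundant of them, was at 4320, 3910 and 4110 CPM against 3470, 3440 and 3500 CPM. The difference for Lyz2 was 0.24 log2 units (adjusted p = 0.129, and adjusted p = 0.0469 with the GC and length trend removed). The 8 melanoma markers summed to 92.7 to 103 CPM against 88.1 to 91.3 CPM, of which Mitf, also expressed by macrophages, made up 92.4 to 102 CPM and 87.3 to 90.6 CPM. Pmel was at 0.223 to 0.675 CPM over the 6 libraries. Tyrp1 was at 0 counts in all 6, and Tyr and Sox10 had 1 count each in all 6 together. Markers of neutrophils, B cells, T and NK cells, dendritic cells, erythroid cells and mast cells each summed to at most 1.63 CPM. The 6 fibroblast markers summed to 57.7 to 81.3 CPM with Ifnb1eGFP supernatant and 51.2 to 77.9 CPM with rIFNβ, ranges that overlapped.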

How the data were processed

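RNA of M2-like BMDM was sequenced by the authors with 3 libraries for each of 4 conditions (TruSeq Stranded Total RNA Kit). The authors counted reads with RSEM 1.3.3 and deposited expected counts per Ensembl gene, estimated counts that need not be whole and were not normalized. The sources name the genome builds GRCm39 and mm10 side by side. Columns were assigned to samples by their descriptions, with 0 left over. Expected counts were rounded, since 12% were not whole. The software was edgeR 4.0.16 under R 4.3.3. Low counts were filtered with filterByExpr, library totals were scaled by TMM factors, and the 12 libraries entered 1 quasi-likelihood fit, with Benjamini-Hochberg adjustment over 15033 genes. Symbols and positions come from GENCODE M39 (GRCm39), which lists 56017 of the 56748 genes. Standard errors are the log2 fold change over the root of F, and log2 CPM used a prior count of 2. Scripts were tested on simulated data.

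Members and gene lists were chosen with earlier results of these data known. Named genes were drawn from those called, named by the study for this experiment, with one of the 3 smallest p values of a list, receptor genes or Ifnb1, among the 3 largest differences each way with groups apart and at least 1 CPM, or among the 3 smallest interaction p values. Replicate numbers were used as pairs only in the fits with the replicate block. The main fit did not use them, so its p-values are unpaired. Same-numbered libraries of the sources deviated from their group means with r = 0.167, 0.246 and 0.207 across genes, and others with −0.168 to −0.00305. Deviations from a mean of 3 libraries sum to 0, so the values of the others are no separate evidence. For eGFP supernatant and untreated control the same-numbered values were 0.124, 0.108 and 0.0774. What the replicate number stands for is not given in the sources used here. Alternatives were DESeq2 1.42.0, RLE factors, no filter, the replicate block, other thresholds, only the compared conditions and each library left out. Chosen after the data were seen, each library's spline trend of log2 CPM on GC content and length of the longest transcript (known for 99.6% of genes) was removed as an offset. The authors' own comparisons were not used. The values of 1 called gene are not reported here.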

Additional observations from a re-analysis of the deposited data

How the results depend on the processing

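Genes called between Ifnb1eGFP supernatant and rIFNβ numbered 24 (21 higher, 3 lower), 115 (93 and 22) with DESeq2, 41 (35 and 6) without the filter, 48 (41 and 7) with the replicate block as pairing, 2 (2 and 0) with only the compared conditions, 32 (27 and 5) with the GC and length correction, 110 (83 and 27) with that and the block, and 150 (74 and 76) with that and without Ifnb1eGFP supernatant replicate 2. With 1 library left out they ranged from 4 to 1051 (4 to 194 higher, 0 to 857 lower). The lowest count was without rIFNβ replicate 1, the highest without Ifnb1eGFP supernatant replicate 2, and it was 8 without its replicate 3 or without rIFNβ replicate 2 and 11 without rIFNβ replicate 3. Called in all 6 fits without 1 of the compared libraries were 4 genes, Ms4a4a, Cxcr4, Fcgr2b and Bcl2a1b. With only the compared conditions Ms4a4a and Cxcr4 were called, and Fcgr2b, Bcl2a1b and Thbs1 had adjusted p values of 0.0523, 0.0528 and 0.0523. Past the strict thresholds DESeq2 gave 1 gene, Gm10222, seen in 1 library at 5.95 CPM, and thresholds of 1 log2 unit and 0.05 gave 4. Of the 24 genes, 11 were called with eGFP supernatant, 18 with DESeq2, 18 with the block and GC and length correction, 7 with only the compared conditions and 6 to 13 with 1 library left out (6 without untreated control replicate 1 or 3, 7 without its replicate 2 or eGFP supernatant replicate 2). Interactions called were 0, 9 with DESeq2 and 1 without the filter. The cause of these differences was not tested, beyond fewer samples in the fits that leave some out.

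Signs turned for genes that were not called. Fcgr4 was 0.01 with DESeq2, RLE factors, no filter, only the compared conditions and the correction without replicate 2. Ifnar2 was 0.01 with DESeq2, RLE factors, the correction and the correction with block, and 0.00 with no filter and only the compared conditions. Icam1 was 0.00 with the correction. With the correction and without replicate 2, Aif1 was 0.05, H2-Q6 0.07, Oasl1 0.03, Ptpn6 0.08, Icam1 0.06, Pmel 0.19, Pdgfra 0.05, Adgre5 0.00 and Il6ra 0.00. With 1 library left out, log2 fold changes ranged from −0.07 to 0.05 for Aif1, −0.03 to 0.26 for Cd69, −0.05 to 0.06 for Fcgr4, −0.73 to 0.05 for Pmel, −0.05 to 0.16 for Cd79b, −0.33 to 0.46 for Pax5, −0.17 to 0.11 for Zbtb46, −0.46 to 0.10 for Pdgfra and −0.08 to 0.06 for Ifnar2. With 3 libraries per condition, the 95% intervals, which are not adjusted for the number of genes, had a median half-width of 0.239 log2 units. In the main fit no absolute difference below 0.29 log2 units was called. Some larger ones, such as that of Cd74 (−0.37), were not called either.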
